A study of Mus musculus with 4 samples.

Results

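The 10 genes described here encode the subunits of the transcription factor AP-1 and 3 further immediate early factors, in primary mouse liver sinusoidal endothelial cells (LSECs). They were chosen by name, from the known membership of the FOS and JUN families (*Fos*, *Fosb*, *Fosl1*, *Fosl2*, *Jun*, *Junb* and *Jund*) together with *Egr1*, *Atf3* and *Ier2*. All 10 were found, each as 1 gene, among the 18373 genes of the expression table, and all 10 passed the filter on low counts that left 13628 genes for testing. LSECs were prepared from livers of 8-week-old Balb/c mice with CD146 beads, cultured for 24 h and then transfected for 48 h, so that the RNA is labelled day 3. In the NC group (2 libraries) the cells received a control siRNA, and in the si*Airn* group (2 libraries) they received siRNA against *Airn*, a long noncoding RNA of the imprinted *Igf2r* locus. Every library therefore comes from cells that were both cultured and transfected, and none comes from freshly isolated or untransfected LSECs. The methods describe 2 separate siRNAs, while the labels of both libraries carry the number 1 in the name of the siRNA, and it is therefore unclear which siRNA went into which library. The comparison asks which transcripts change when *Airn* is targeted in LSECs.

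AP-1 is a dimer of basic leucine zipper proteins. JUN proteins pair with one another or with FOS proteins, whereas FOS proteins need a JUN partner to bind DNA, and the dimer recognises the TPA response element in promoters and enhancers. Several of these genes are immediate early genes: growth factors, stress and mechanical stimuli switch them on within minutes through kinases of the MAPK family without new protein synthesis, and the transcripts decay quickly. In endothelium they are known as early responders to flow, injury and cell culture.

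The proteins of the FOS and JUN families share the basic region that contacts DNA, and the coding bases of that region show how close the family members are and how far apart the reads can be told. The stretch of 48 coding bases is given below for the 7 subunit genes and for *Atf3*, read 5′ to 3′ on the coding strand from the GENCODE M21 transcripts (GRCm38). Capitals mark bases shared by all 4 FOS genes (27 of 48), by all 3 JUN genes (32 of 48) or, for *Atf3*, by *Atf3* and all 4 FOS genes (25 of 48).
Fos, chr12:85475619-85475666, plus strand, exon 3: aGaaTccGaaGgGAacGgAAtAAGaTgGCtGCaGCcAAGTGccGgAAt
Fosb, chr7:19306592-19306639, minus strand, exon 3: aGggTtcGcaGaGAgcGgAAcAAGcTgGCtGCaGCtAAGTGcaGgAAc
Fosl1, chr19:5454440-5454487, plus strand, exon 3: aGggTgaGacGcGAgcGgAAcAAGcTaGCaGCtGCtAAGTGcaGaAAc
Fosl2, chr5:32150448-32150495, plus strand, exon 3: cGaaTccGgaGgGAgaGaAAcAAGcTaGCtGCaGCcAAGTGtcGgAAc
Jun, chr4:95050450-95050497, minus strand, exon 1: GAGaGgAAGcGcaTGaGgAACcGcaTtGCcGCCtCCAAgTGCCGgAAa
Junb, chr8:84977578-84977625, minus strand, exon 1: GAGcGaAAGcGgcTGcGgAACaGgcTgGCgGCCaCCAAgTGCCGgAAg
Jund, chr8:70699853-70699900, plus strand, exon 1: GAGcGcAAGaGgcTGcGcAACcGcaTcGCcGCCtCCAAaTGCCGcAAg
Atf3, chr1:191172408-191172455, minus strand, exon 3: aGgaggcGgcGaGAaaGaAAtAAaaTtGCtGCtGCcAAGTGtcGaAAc

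Within the FOS family the stretch was identical at 66.7% to 81.2% of bases, with *Fosb* and *Fosl1* the closest pair. The JUN genes shared 75.0% to 77.1%. Between *Fos* and *Jun* 52.1% of bases were the same, whereas *Fos* and *Atf3* shared 70.8%. Even so, the longest run of bases common to transcripts of any pair of the 10 genes was 20, between *Jun* and *Jund*. The reads were 50 bases long, and no window of that length in a transcript of the 10 genes was found on the same strand in a transcript of another gene.

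*Airn*, the targeted RNA, was counted 7 and 3 times in the NC libraries, and 11 and 9 times where the label is si*Airn*. It was thus not lower in the si*Airn* libraries: their total was 2.02 times that of the NC libraries per count sequenced (95% exact binomial interval 0.903 to 4.83, covering counting error only). With so few counts *Airn* was not among the genes tested. The paper reports that the siRNAs it went on to use knocked *Airn* down efficiently. The library totals lay between 17308382 and 18371959 counts. All 12 pan-endothelial markers were detected, as were all 12 LSEC markers, although *Cd209b* was too low to test. Markers of other cells were present as well. The summed level of the 12 hepatocyte markers was 663 and 842 CPM (counts scaled to a common library size, with TMM normalization) in the NC libraries and 914 and 1193 CPM in the si*Airn* libraries, and that of the 12 stellate cell and fibroblast markers was 1732 and 2100 CPM against 2023 and 2620 CPM.

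The 10 genes spanned a wide range of levels. On the FPKM scale, which divides by transcript length and so allows genes to be compared, *Junb* was the highest in every library by the deposited values (102.95 and 115.60 FPKM in NC, 105.45 and 126.81 FPKM in si*Airn*). *Fosb* was the lowest, at 1.24 and 1.04 FPKM in NC and 1.27 and 1.38 FPKM in si*Airn*. In the NC libraries the order was *Junb*, *Jund*, *Fosl2*, *Jun*, *Fosl1*, *Atf3*, *Ier2*, *Egr1*, *Fos* and *Fosb*, and the ranges of neighbours did not overlap except those of *Atf3* and *Ier2*. In the si*Airn* libraries the order was *Junb*, *Fosl2*, *Fosl1*, *Jund*, *Jun*, *Ier2*, *Atf3*, *Egr1*, *Fos* and *Fosb*, with overlap between *Fosl1* and *Jund* and between *Ier2* and *Atf3*. Parts of this order rest on the transcript lengths, most of all the place of *Jund*: the deposited FPKM imply 2758 bases, against 1668 bases in GENCODE. With GENCODE lengths for all 10 genes *Jund* was at 130 and 125 FPKM in NC, above *Junb* at 98.1 and 110 FPKM. In si*Airn* it was then at 102 and 91.6 FPKM, overlapping *Junb* at 99.9 and 121 FPKM, and it was above *Fosl2* and *Fosl1* in every library. With these lengths *Fosl2* (49.1 and 50.2 FPKM) and *Jun* (50.4 and 47.2 FPKM) overlapped in NC, while *Atf3* (28.3 and 23.2 FPKM) and *Ier2* (21.1 and 23.0 FPKM) did not. The mean level of *Junb* lay above 95.7% of all genes in the table, that of *Jund* above 92.4%, that of *Fos* above 55.5% and that of *Fosb* above 38.2%, so the prototype immediate early gene *Fos* was near the middle of the table while *Junb* and *Jund* were near its top.

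**Figure D1:**
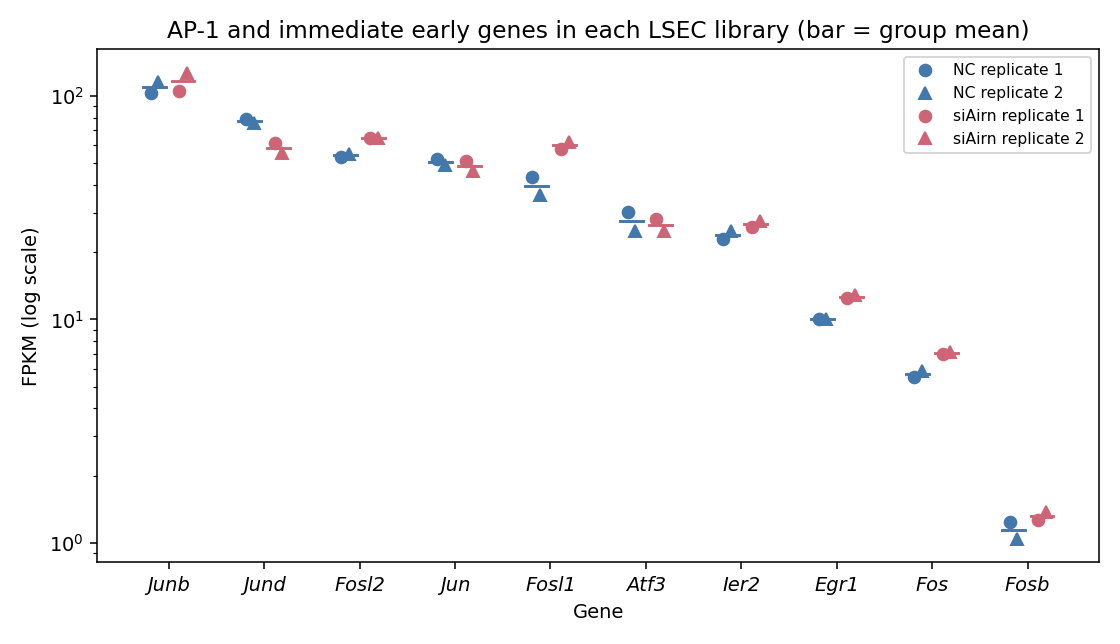
Level of each of the 10 genes (FPKM, log axis) in the 2 NC libraries (blue) and the 2 si*Airn* libraries (red), with circles for replicate 1, triangles for replicate 2 and a bar at the group mean. *Fosl1* lies at 43.32 and 35.96 FPKM in NC against 57.95 and 62.18 FPKM in si*Airn*, and *Jund* at 78.77 and 75.61 against 61.63 and 55.38 FPKM.

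Between the groups, *Fosl1*, *Fosl2* and *Egr1* rose and *Jund* fell in the si*Airn* libraries. A gene was called where the adjusted p of edgeR's quasi-likelihood test (Benjamini-Hochberg over all 13628 genes tested) was under 0.05. By this rule 4 of the 10 genes were called, 3 higher and 1 lower, against a background of 16.8% of all genes tested (8.27% higher and 8.56% lower). The median log2 fold change of the 10 genes was 0.16, with 7 above and 3 below 0, while that of all genes tested was 0.00. In 6 of the 10 genes the 2 groups did not overlap in CPM, 5 of them higher and 1 lower in si*Airn*, where 62.7% of all genes tested did not overlap (30.9% higher and 31.9% lower). Only *Fosl1* among the 10 changed by more than 1.4-fold with an unadjusted p below 0.05, against 9.96% of all genes tested. In these bulk libraries, fewer cells of a type and less RNA per cell cannot be told apart.

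The FOS subunits were all higher in si*Airn* by their fitted value, and *Fosl1* and *Fosl2* passed the test. *Fosl1* (chr19:5447547-5455946, plus strand) encodes FRA-1, a FOS protein without the strong transactivation domain of FOS itself that is often linked to invasion and matrix remodelling. Its level was 69.5 and 57.9 CPM in the NC libraries and 89.9 and 97.7 CPM in the si*Airn* libraries. Both si*Airn* libraries were above both NC libraries, although the NC libraries differed from each other more than the si*Airn* libraries did. The mean rose from 63.7 ± 8.22 to 93.8 ± 5.55 CPM (SD, n = 2 each), a 1.47-fold increase (log2 fold change 0.56, SE 0.10, adjusted p = 0.0152 by edgeR). *Fosl1* was called by all 12 alternative analyses that kept the 4 libraries. The call was lost without NC replicate 1 (log2 fold change 0.69) or without NC replicate 2 (0.43). In those fits few or no genes of the whole table were called, so the loss is not particular to *Fosl1*. Of the exonic bases of *Fosl1*, 57.2% lie under exons of *Ccdc85b* on the opposite strand, and without strand information reads of the pair cannot be told apart. *Ccdc85b* itself was at 82.1 and 72.3 CPM in NC and 67.0 and 60.1 CPM in si*Airn*, lower where *Fosl1* was higher (log2 fold change -0.28, SE 0.09, adjusted p = 0.0752 by edgeR).

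*Fosl2* (chr5:32135801-32157842, plus strand) encodes FRA-2, the FOS protein with the highest transcript level in these cells. It was at 324 and 333 CPM in the NC libraries and at 387 and 392 CPM in the si*Airn* libraries. The groups were well apart relative to their spread, with means of 329 ± 6.62 and 389 ± 3.84 CPM (SD, n = 2 each). The log2 fold change was 0.24 (SE 0.06, adjusted p = 0.0334 by edgeR), a smaller change than that of *Fosl1* in a gene with a higher level in every library. The call was lost once GC content and transcript length were corrected (log2 fold change 0.16, adjusted p = 0.127 by edgeR). It was also lost when any 1 of the 4 libraries was left out (log2 fold changes from 0.22 to 0.26). Where that library was from NC, few or no genes of the whole table were called.

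*Fos* (chr12:85473890-85477273, plus strand), the founding member of the family, was at 11.1 and 11.8 CPM in NC and at 13.8 and 14.2 CPM in si*Airn*. Both si*Airn* libraries were above both NC libraries, yet the gene did not pass the adjusted test (log2 fold change 0.28, SE 0.11, adjusted p = 0.132 by edgeR). Its counts were only 191, 214, 249 and 251, which gives it a wider error than *Egr1* with a log2 fold change of nearly the same size. *Fosb* (chr7:19302696-19310051, minus strand) was at 4.32 and 3.76 CPM in NC and at 4.43 and 4.92 CPM in si*Airn*, from 68 to 87 counts. Its groups did not overlap, but only just, and the log2 fold change of 0.21 was about the size of its standard error of 0.20 (adjusted p = 0.498 by edgeR). The fitted value of *Fosb* ranged from 0.11 (without NC replicate 2) and 0.13 (without si*Airn* replicate 2) to 0.31 (without NC replicate 1) when 1 library was left out.

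Among the JUN subunits, *Jund* fell, whereas *Jun* and *Junb* overlapped between the groups. *Jund* (chr8:70698949-70700616, plus strand) encodes JunD, the JUN protein that is widely expressed in resting cells and is less dependent on stimulation than the other two. It was at 220 and 212 CPM in the NC libraries and at 167 and 152 CPM in the si*Airn* libraries. Every NC library was above every si*Airn* library, and the distance between the means, 216 ± 5.63 and 159 ± 10.7 CPM (SD, n = 2 each), was larger than the spread in either group. The gene fell by 0.44 on the log2 scale (SE 0.07, adjusted p = 0.0124 by edgeR), a change of 1.36-fold. After GC and length correction the log2 fold change was -0.21 and no longer called (adjusted p = 0.148). Without NC replicate 1 it was -0.42 and without NC replicate 2 it was -0.47, not called in either fit. Few or no genes of the whole table were called in those 2 fits. The call remained without either si*Airn* library. *Jund* has the highest GC content of the 10 genes (67.1%), and 52.6% of its exonic bases lie under *Gm11175* on the opposite strand, a gene not analysed here.

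*Jun* (chr4:95049034-95052222, minus strand), the classic partner of FOS, was at 162 and 153 CPM in NC and at 154 and 140 CPM in si*Airn*. The higher si*Airn* library lay between the 2 NC libraries, and the difference did not pass the test (log2 fold change -0.10, SE 0.07, adjusted p = 0.369 by edgeR). *Junb* (chr8:84974484-84978718, minus strand), a JUN protein that can restrain JUN activity, was at 179 and 202 CPM in NC and at 178 and 216 CPM in si*Airn*. Here the si*Airn* libraries held both the lowest and the highest of the 4 values, so the spread within the groups exceeded the difference between them (log2 fold change 0.05, SE 0.11, adjusted p = 0.789 by edgeR). The fitted value of *Junb* was below 0 without NC replicate 1 (-0.04) or without si*Airn* replicate 2 (-0.10), it was 0.13 without NC replicate 2 and 0.18 without si*Airn* replicate 1, and after GC and length correction it was 0.26 (adjusted p = 0.125). The fitted value of *Jun* was 0.00 after GC and length correction. With 1 library left out it was -0.06 (without NC replicate 1), -0.15 (without NC replicate 2), -0.17 (without si*Airn* replicate 1) and, once si*Airn* replicate 2 was dropped, -0.04.

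The genes of the third group are immediate early genes outside the FOS and JUN families. *Egr1*, on chromosome 18, encodes a zinc finger factor that is switched on through serum response factor and binds GC-rich promoters. It was at 30.1 CPM in both NC libraries and at 36.1 and 37.5 CPM in the si*Airn* libraries. The NC libraries were nearly identical and both lay below the si*Airn* libraries, with means of 30.1 ± 0.00886 and 36.8 ± 1.00 CPM (SD, n = 2 each). *Egr1* rose by a log2 fold change of 0.29 (SE 0.08), close to the threshold (adjusted p = 0.0474 by edgeR). The call was lost by DESeq2 (adjusted p = 0.184), and in edgeR by upper-quartile normalization (adjusted p = 0.0530) and without the filter on low counts (adjusted p = 0.0678). It was also lost with any 1 of the 4 libraries left out (log2 fold changes from 0.26 to 0.32). Where that library was from NC, few or no genes of the whole table were called.

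*Atf3* (chr1:191170296-191218039, minus strand) encodes a stress-induced leucine zipper factor that pairs with JUN proteins and often represses. It was at 56.7 and 46.7 CPM in NC and at 51.2 and 45.8 CPM in si*Airn*. The groups overlapped, and the log2 distance between the NC libraries (-0.28, replicate 2 against replicate 1) was larger than that between the groups (log2 fold change -0.09, SE 0.11, adjusted p = 0.601 by edgeR). After GC and length correction the fitted value of *Atf3* was 0.04. It was 0.05 without NC replicate 1, -0.01 without si*Airn* replicate 2, -0.17 without si*Airn* replicate 1 and -0.23 without NC replicate 2. *Ier2* (chr8:84661331-84662852, minus strand) encodes a nuclear protein of the immediate early response. It was at 32.4 and 35.5 CPM in NC and at 35.5 and 38.2 CPM in si*Airn*. The lower si*Airn* library and the higher NC library were almost equal, and the gene did not pass the test (log2 fold change 0.12, SE 0.09, adjusted p = 0.395 by edgeR), but it did after GC and length correction (0.34, adjusted p = 0.0425). The fitted value of *Ier2* was 0.05 without NC replicate 1, 0.06 without si*Airn* replicate 2 and 0.18 without NC replicate 2.

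**Figure D2:**
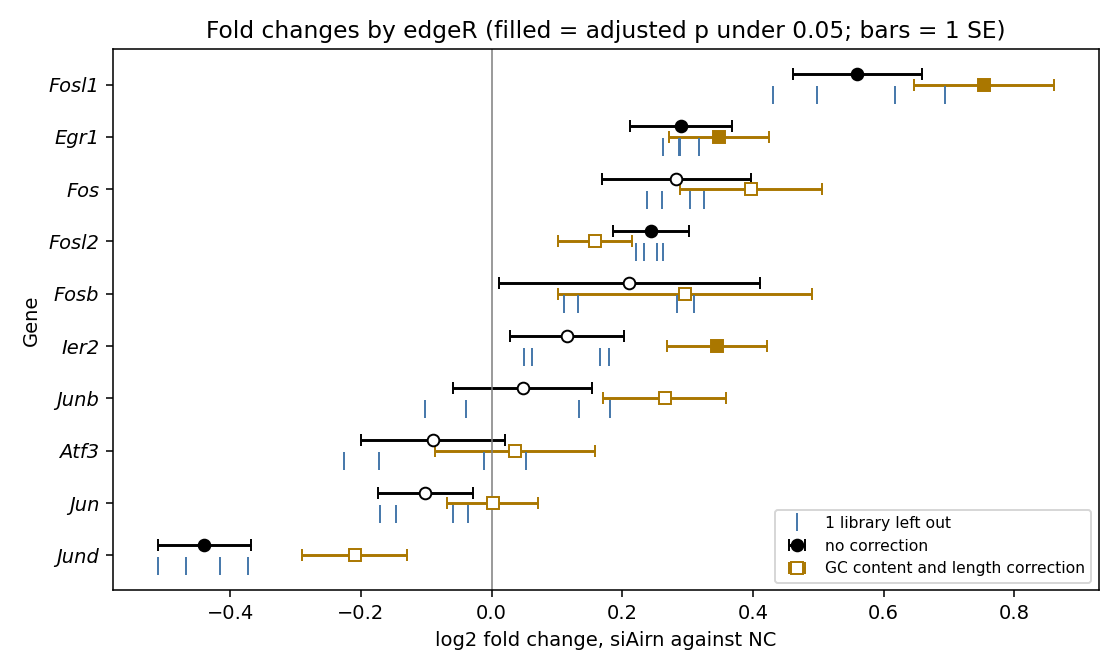
Fitted log2 fold change of each gene, si*Airn* against NC, without correction (black circles) and with the correction for GC content and transcript length (brown squares), with bars of 1 standard error and filled symbols for an adjusted p under 0.05. Blue ticks show the value with 1 library left out; *Fosl1* stays between 0.43 and 0.69 and *Jund* between -0.51 and -0.37, whereas the ticks of *Junb* and *Atf3* lie on both sides of 0.

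Correcting each library for GC content and transcript length moved the estimates of 9 of the 10 genes upward, the 3 JUN genes and *Ier2* among them, and that of *Fosl2* downward. With this correction 3 of the 10 genes were called, *Fosl1* (log2 fold change 0.75, adjusted p = 0.0144), *Egr1* (0.35, adjusted p = 0.0411) and *Ier2*, against 8.10% of the 12948 genes that had a GC content and a length. *Fosl2* and *Jund* kept their direction but were not called. With the lengths implied by FPKM in the correction, the log2 fold change of *Jund* was -0.30 (adjusted p = 0.0580). That of *Fosl2* was then 0.12 (adjusted p = 0.228 by edgeR).

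Summed on the FPKM scale, the FOS transcripts were at 103.59 and 97.72 FPKM in the NC libraries and at 131.21 and 135.74 FPKM in the si*Airn* libraries. Both si*Airn* libraries were above both NC libraries, and *Fosl1* and *Fosl2* together made up nearly all of the sum in each library. The JUN transcripts summed to 234.08 and 240.27 FPKM in NC and to 218.18 and 228.24 FPKM in si*Airn*, lower in both si*Airn* libraries by a small margin. The ratio of the FOS sum to the JUN sum was 0.443 and 0.407 in NC and 0.601 and 0.595 in si*Airn*, with means of 0.425 ± 0.0253 and 0.598 ± 0.00471 (SD, n = 2 each). With GENCODE lengths the ratio was 0.331 and 0.309 in NC and 0.467 and 0.474 in si*Airn*, lower throughout but again higher in both si*Airn* libraries. The JUN sums with these lengths were 279 and 282 FPKM in NC against 251 and 256 FPKM in si*Airn*. None of the sums is corrected for GC content. After GC and length correction the fitted log2 fold changes were 0.00 for *Jun*, 0.26 for *Junb* and -0.21 for *Jund*. A JUN sum with that correction was not computed, so its direction is not known. The sums and ratios are given as values, with no test.

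The make-up of both families differed too. *Fosl1* supplied 41.8% and 36.8% of the FOS sum in the NC libraries and 44.2% and 45.8% in the si*Airn* libraries. *Jund* supplied 33.7% and 31.5% of the JUN sum in NC and 28.2% and 24.3% in si*Airn*, so its share was lower in both si*Airn* libraries. With GENCODE lengths these shares were 46.8% and 44.3% against 40.6% and 35.7%. The level of *Fosl1* relative to *Jund*, the pair of genes that moved furthest apart, was 0.550 and 0.476 in NC and 0.940 and 1.12 in si*Airn*. *Jun* relative to *Jund* was 0.665 and 0.649 in NC against 0.829 and 0.832 in si*Airn*. *Junb* relative to *Jund* was 1.31 and 1.53 against 1.71 and 2.29. The 3 ratios were higher in both si*Airn* libraries than in either NC library, and that of *Junb* to *Jund* varied most between replicates. All 3 divide by *Jund*, so they repeat its lower level and are not separate observations. The fall of *Jund* was not called after GC and length correction (log2 fold change -0.21, adjusted p = 0.148 by edgeR). Another length for *Jund* scales each of these ratios by the same factor in all 4 libraries.

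**Figure D3:**
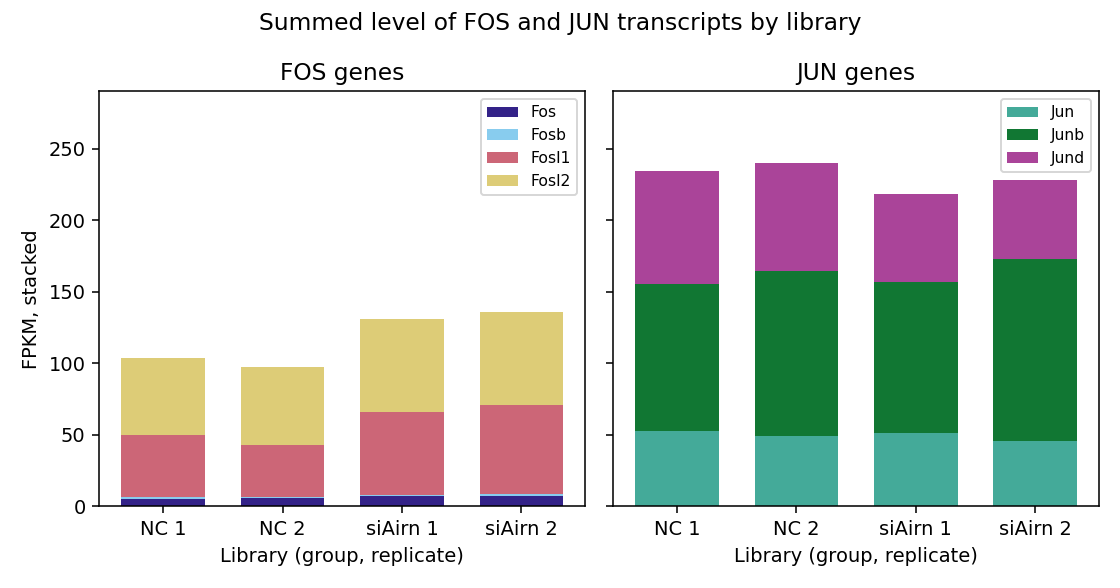
Stacked FPKM of the 4 FOS genes (left) and the 3 JUN genes (right) in each of the 4 libraries; the axis starts at 0 and is the same in both panels. The FOS stacks reach 103.59 and 97.72 FPKM in NC and 131.21 and 135.74 FPKM in si*Airn*, while the JUN stacks stay between 218.18 and 240.27 FPKM.

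Promoters were examined for the elements through which these genes are known to be regulated. RefSeq sequences of 250 bases before each start site (GRCm38.p6) were available for 7 of the 10 genes; *Fosl1*, *Egr1* and *Ier2* were not matched. The 100 bases before the start of *Fos* and *Jun*, the genes with the best known elements, and of *Fosl2*, a gene that rose, are given 5′ to 3′ on the strand of the gene, with matches to the response elements described after them in capitals. The RefSeq start of *Fos* and *Jun* is also a GENCODE start, whereas that of *Fosl2* lies 299 bases from the nearest GENCODE start.
Fos, chr12:85473790-85473889, plus strand: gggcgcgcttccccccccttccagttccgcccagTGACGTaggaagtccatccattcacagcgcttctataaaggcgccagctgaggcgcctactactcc
Jun, chr4:95052223-95052322, minus strand: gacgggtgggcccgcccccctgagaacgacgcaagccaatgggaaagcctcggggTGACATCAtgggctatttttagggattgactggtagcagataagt
Fosl2, chr5:32136372-32136471, plus strand: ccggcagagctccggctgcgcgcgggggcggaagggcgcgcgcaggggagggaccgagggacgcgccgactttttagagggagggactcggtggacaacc

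Among the 7 windows, that of *Jund* precedes a RefSeq start 1210 bases from its nearest GENCODE start and so does not lie before the start in that annotation. The half-site of the cyclic AMP response element, TGACGT or ACGTCA on either strand, was found in 2 of the 7 promoters, at -66 to -61 in *Fos* and at -8 to -3 in *Atf3*, and in 6.56% of 27025 mouse promoters of the same length. The variant TGACATCA (or TGATGTCA) was found in *Jun*, at -45 to -38, and in 3.02% of promoters. The TPA response element itself, TGACTCA or TGAGTCA, was in none of the 7 windows and in 4.43% of promoters, and the full cyclic AMP response element TGACGTCA, which contains the half-site, was likewise in none of the 7 and in 1.62%. The CArG box that serum response factor binds was in none of the 7 windows and in 1.4% of promoters. Sites more than 250 bases before a start were not searched, and *Egr1* had no window. These genes, *Fos* among them, may therefore hold a CArG box outside what was searched. TATAAA, the TATA box, was at -33 to -28 in *Fos*, where it is left in lower case, and in 8.12% of promoters. Neither *Fos* nor *Jun* passed the adjusted test, and the window of *Fosl2*, which did, held no match to any of these letters, for the RefSeq start used. A match describes letters in a window and not a bound site.

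Around the 10 genes, 6 lists of the same pathway held 128 genes tested, of which 29 were called, beside 16.8% of all genes tested. Called were 2 of 14 partners, 8 of 31 other immediate early genes, 3 of 23 upstream genes, 6 of 18 feedback regulators, 9 of 30 targets and 1 of 12 heat shock genes, so that in this fit partners, upstream genes and heat shock genes were near or below that background. Other basic leucine zipper factors that can pair with AP-1 proteins or compete with them (14 genes) had a median log2 fold change of 0.03, with 1 called higher and 1 lower. The median was -0.02 without si*Airn* replicate 1 and 0.09 after GC and length correction. *Bach1*, a repressor that pairs with small MAF proteins, was at 47.0 and 45.1 CPM in NC and at 67.5 and 62.9 CPM in si*Airn* (log2 fold change 0.50, SE 0.07, adjusted p = 0.00989 by edgeR). *Batf2* was at 17.3 and 14.4 CPM in NC and at 11.3 CPM in both si*Airn* libraries (log2 fold change -0.49, SE 0.13, adjusted p = 0.0455 by edgeR). The 2 called genes thus moved in opposite directions, and *Batf2* was not called after GC and length correction (-0.28, adjusted p = 0.237) or by DESeq2 (adjusted p = 0.138). *Bach1* was at 0.33 and called after the correction with GENCODE lengths, and not called with the lengths implied by FPKM (adjusted p = 0.0591).

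Of 32 other immediate early genes 31 were tested, and 5 rose and 3 fell, with a median log2 fold change of 0.10. That median was 0.18 without si*Airn* replicate 1 and 0.21 after GC and length correction. *Klf4*, an endothelial transcription factor that responds to flow, was at 15.99 and 13.05 CPM in NC and at 7.97 and 8.25 CPM in si*Airn* (log2 fold change -0.84, SE 0.14, adjusted p = 0.0145 by edgeR), the largest change among the called genes of the 6 lists. The other genes that fell, *Rhob* and *Ier5l*, had log2 fold changes of -0.31 and -0.40. The genes that rose were *Klf6*, a zinc finger factor known from liver injury, at 0.41, *Klf10*, a target of TGF-beta signalling, at 0.43, *Nfkbiz* at 0.44, the kinase *Plk2* at 0.28 and *Errfi1*, an inhibitor of the EGF receptor, at 0.38. These 7 were named after their values were seen. After GC and length correction *Ier5l* (-0.24, adjusted p = 0.124) and *Rhob* (-0.16, adjusted p = 0.207) were smaller and not called, whereas *Nfkbiz* (0.42, adjusted p = 0.0704) and *Plk2* (0.28, adjusted p = 0.0524) kept nearly their size and were not called. *Nfkbiz* was at 0.26 without si*Airn* replicate 2, and *Klf10* was not called by DESeq2 (adjusted p = 0.0681).

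Upstream of AP-1, 3 of the 23 kinases and serum response factor partners tested were called, all of them lower. These were *Mapk3*, which encodes an ERK kinase (log2 fold change -0.38), *Map2k2*, a kinase that activates ERK (-0.25), and *Elk3*, a partner of serum response factor (-0.28), and the list's median was 0.07. That median was 0.035 without NC replicate 2, -0.0065 after GC and length correction and -0.054 with implied lengths in it. After GC and length correction *Mapk3* (-0.19, adjusted p = 0.101) and *Map2k2* (-0.08, adjusted p = 0.372) were smaller and no longer called, and *Elk3* was not called by library totals without TMM or by limma (adjusted p from 0.0680 to 0.0830). Of 18 feedback regulators, which shut the pathway off, 5 rose and 1 fell, and the median was 0.19. *Dusp16*, a phosphatase of JUN kinases, was at 39.0 and 37.2 CPM in NC and at 56.7 and 54.4 CPM in si*Airn* (log2 fold change 0.54, SE 0.07, adjusted p = 0.00853 by edgeR). The other genes that rose all encode Sprouty or Spred inhibitors of the Ras to ERK pathway, with log2 fold changes of 0.46 for *Spry1*, 0.37 for *Spry2*, 0.40 for *Spry4* and 0.34 for *Spred1*. *Dusp1*, itself an immediate early phosphatase, fell by 0.38 on the log2 scale and by 0.25 after GC and length correction. *Spred1* was not called after GC and length correction (0.11, adjusted p = 0.412).

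Of 30 known targets of AP-1 or EGR1, 6 rose and 3 fell, with a median log2 fold change of 0.13. *Cd44*, the hyaluronan receptor, was at 132 and 141 CPM in NC and at 200 and 253 CPM in si*Airn* (log2 fold change 0.73, SE 0.11, adjusted p = 0.0116 by edgeR). *Thbs1*, a matrix glycoprotein, was at 879 and 961 CPM in NC and at 1231 and 1681 CPM in si*Airn* (0.66, SE 0.14, adjusted p = 0.0234 by edgeR). *Fn1*, fibronectin, was at 87.8 and 99.2 CPM in NC and at 118 and 177 CPM in si*Airn* (0.66, SE 0.17, adjusted p = 0.0450 by edgeR). In all 3 genes si*Airn* replicate 2 was well above replicate 1, and without it the log2 fold changes were 0.55, 0.42 and 0.34. After GC and length correction *Thbs1* (0.54, adjusted p = 0.0541) and *Fn1* (0.52, adjusted p = 0.103) were not called, and *Fn1* was not called by DESeq2 (adjusted p = 0.118). *Mmp2*, a gelatinase, also rose (0.56), as did *Hmox1* (0.30, adjusted p = 0.0494 by edgeR) and *Vegfa* (0.28), while *Mmp14* (-0.48), the membrane-bound activator of *Mmp2*, *Ccl2* (-0.38) and *Tgfb1* (-0.26) fell. *Tgfb1* was not called after GC and length correction (-0.16, adjusted p = 0.114), nor *Vegfa* by DESeq2 (adjusted p = 0.0798), nor *Hmox1* by upper-quartile normalization, without the filter on low counts or by limma (adjusted p from 0.0516 to 0.0565), while after GC and length correction *Hmox1* was at 0.46. Of 12 heat shock genes only *Hspd1*, a mitochondrial chaperonin, was called in the analysis reported, higher with a log2 fold change of 0.49 (adjusted p = 0.00683 by edgeR). DESeq2, library totals without TMM and the replicate block each called 3 heat shock genes, all higher. The block together with the GC and length correction called 6 higher and 2 lower. Of the 29 genes called in the 6 lists, 18 were called after GC and length correction, 14 with implied lengths in it and 24 by DESeq2. With the implied lengths *Bach1*, *Klf6*, *Klf10* and *Spry4*, called with GENCODE lengths, were not called (adjusted p from 0.0591 to 0.0658). None of the 29 was called by edgeR without NC replicate 1 or without NC replicate 2, where 40 and 0 of all genes were called and 3506 and 3106 had an unadjusted p under 0.05.

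**Figure D4:**
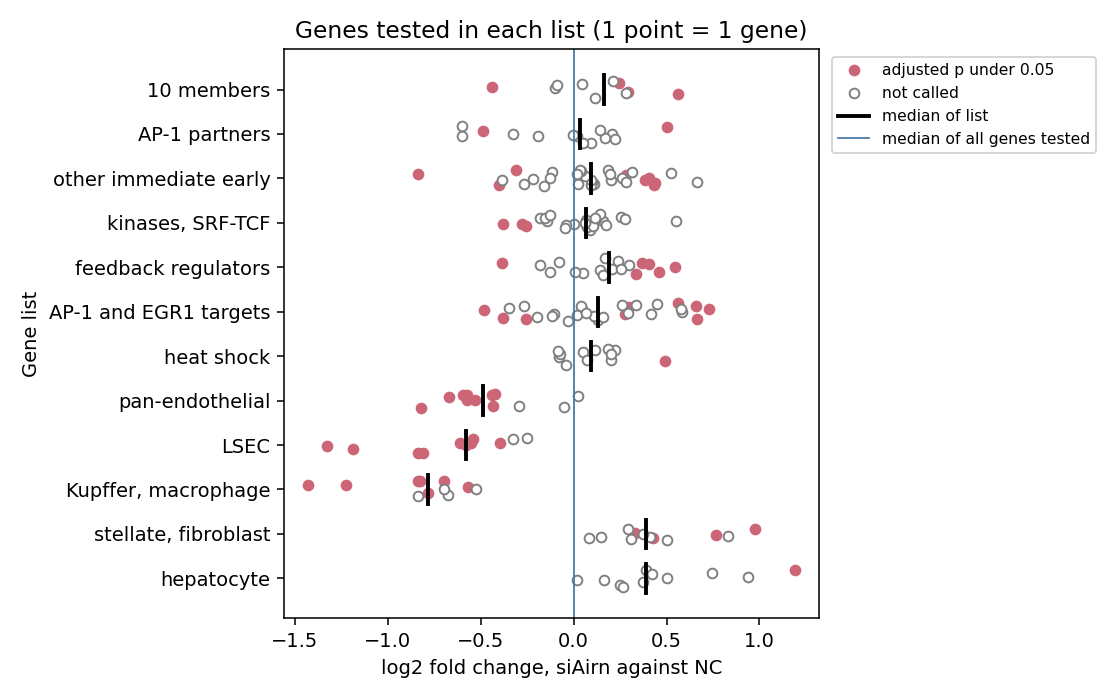
Log2 fold change of each tested gene, si*Airn* against NC, in the 10 genes, the 6 pathway lists and 5 lists of cell type markers; filled points have an adjusted p under 0.05, short black lines are list medians and the blue line is the median of all genes tested. The medians of the pathway lists lie between 0.03 and 0.19, while the pan-endothelial and LSEC markers have medians of -0.49 and -0.58.

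The summed pan-endothelial, LSEC and macrophage markers were lower in both si*Airn* libraries than in either NC library. The hepatocyte sum was higher, while the stellate cell and fibroblast sums overlapped between the groups. Of all genes tested 16.8% were called, 8.27% higher and 8.56% lower. Of the 12 pan-endothelial markers 9 were called, all lower, and their summed level was 11410 to 12053 CPM in NC and 7644 to 8758 CPM in si*Airn*. *Eng* was at 2750 and 3025 CPM in NC and at 1809 and 1821 CPM in si*Airn*, and *Cdh5* was at 2625 and 2322 CPM against 1794 and 1524 CPM. Of 11 LSEC markers tested 9 were called, all lower, with a sum of 3839 to 3883 CPM in NC and 2468 to 2724 CPM in si*Airn*, and of 11 Kupffer cell and macrophage markers tested 7 were called, all lower, with a sum of 243 to 310 CPM against 156 to 186 CPM. Of the 12 stellate cell and fibroblast markers 4 were called, and of 11 hepatocyte markers tested 1 was called, all higher. The 2 highest markers in CPM were not called in the stellate cell list (*Tagln* and *Dcn*) or the hepatocyte list (*Alb* and *Trf*). Those of the LSEC list (*Oit3* and *Stab1*) and the macrophage list (*Lyz2* and *Cd68*) were called. The hepatocyte count was near the share of all genes called higher. The lymphocyte markers summed to between 7.06 and 8.31 CPM over the 4 libraries and the neutrophil and monocyte markers to between 8.48 and 12.9 CPM, with 0 called by edgeR's quasi-likelihood test of 3 and 4 tested and 1 and 0 at an unadjusted p under 0.05. DESeq2 also called 0 in both lists, while edgeR's likelihood-ratio test and limma each called 1 lymphocyte marker, higher, and 0 of the other list. After GC and length correction 6 pan-endothelial, 11 LSEC, 2 macrophage, 3 stellate cell and 2 hepatocyte markers of these lists were called, in the same directions. With that correction 8.10% of 12948 genes were called. With implied lengths in the correction 5 pan-endothelial markers and 1 macrophage marker were called. Limma called 3 macrophage markers and edgeR's likelihood-ratio test 9. Without NC replicate 1 or without NC replicate 2, at most 1 marker of each list was called. Without si*Airn* replicate 1 there were 11 stellate cell and 4 hepatocyte markers called, while 2 stellate cell and 4 macrophage markers were called, and the hepatocyte marker lost its call, when si*Airn* replicate 2 was left out. No marker found in the table was at 0 in all libraries. AP-1 genes are not particular to endothelium, and the part of these shifts in the values of the 10 genes was not tested.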

How the data were processed

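RNA-seq was analysed in 4 libraries of primary LSECs, 2 labelled NC and 2 labelled si*Airn*. The authors deposited 1 table holding, per gene and library, expected counts (not normalized, 76.5% to 76.8% of them whole) and a length-scaled value whose header names no unit. It was read as FPKM deposited by the authors, because it scales with count, length and library total and has no fixed sum. Reads were 50 bases, single end, from the BGISEQ platform. The submitters' processing notes name RSEM, Bowtie2, BWA and the human build hg19, although the samples are from mouse. The role of each tool, the mouse build and the use of strand are not given in the sources used here. Group means in the table were not used.

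Rounded counts were fitted by edgeR 4.0.16 under R 4.3.3 (TMM factors from 0.985 to 1.02, filterByExpr, glmQLFit and glmQLFTest without covariates). Benjamini-Hochberg adjustment ran over the 13628 genes tested, and a gene with an adjusted p under 0.05 was called. The threshold in the study's methods, a fold change over 1.4 with an unadjusted p under 0.05, was applied to the same fit. CPM are TMM-scaled. The steps were tested on simulated data. Alternatives were DESeq2 1.42.0, upper-quartile and library-total normalization, other filters, edgeR's likelihood-ratio test, limma 3.58.1 on log2(FPKM + 1) and log2(FPKM + 0.1) where mean FPKM reached 1, a replicate block, offsets for GC content and length (splines with 5 degrees of freedom, GENCODE M21 on GRCm38, longest transcript), and leaving out each library. The same offsets with lengths implied by FPKM, and levels with GENCODE lengths, were added after seeing the data. Gene positions come from the same annotation, and promoters from RefSeq.

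The labels call the libraries biological replicates, and nothing says that they came from separate animals or cultures, so p-values measure only the spread between these samples. The members and lists were chosen with earlier results of these data known. Named genes are the 10 members, *Airn*, the genes of each pathway list that were called with a fold change over 1.4 (at most the 5 largest in each direction) and the 2 highest markers of a list. Genes named outside this rule, because a count of 5 or fewer is itemised or because they overlap a member, were chosen after their values were seen.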

Additional observations from a re-analysis of the deposited data

How the results depend on the processing

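Over the 10 genes and their alternatives, 128 of 160 values kept both their direction and their side of the threshold, 19 lost a call, 5 gained one and 8 changed sign. Only the 4 called genes could lose a call. Of the 12 alternatives that kept all 4 libraries, *Fosl1* was called in 12, *Fosl2* and *Jund* in 10 each and *Egr1* in 9. The changes of sign were in genes that were not called: *Jun* with the GC content and length correction without (0.0013) and with (0.00065) the replicate block, *Junb* without NC replicate 1 or si*Airn* replicate 2 (-0.10 to 0.18 over the libraries left out), and *Atf3* with the GC content and length correction (0.035), with the replicate block added to it (0.038), with lengths implied by FPKM (0.020) and without NC replicate 1 (-0.23 to 0.053 over the libraries left out). Of the 10 genes, 4 were called in the analysis reported, 4 with the replicate block, 7 with the GC content and length correction together with the replicate block (the same 4, *Ier2*, *Fos* at 0.40 with adjusted p = 0.00843 and *Junb* at 0.26 with adjusted p = 1.4e-05), and 0 to 2 with 1 library left out. Past the fold threshold of 1.4 there was 1 gene, against 0 at a fold change over 2 and 0 to 2 with 1 library left out. Over all genes, 2294 were called, 4841 with the replicate block, 1049 with the GC content and length correction, 4305 with both, 873 with lengths implied by FPKM, and 0 to 2410 with 1 library left out. In the 6 pathway lists 29 were called, 64 with the block, 80 with the block and the correction, 15 with implied lengths and 0 to 36 with 1 library left out. Libraries of the same number deviated together only weakly (correlation 0.23), and with 2 pairs the numbers are not known to pair the samples. Without NC replicate 2 edgeR's quasi-likelihood test called 0 genes, although 3106 had an unadjusted p under 0.05, and no other tool was run on those 3 libraries. Without either NC library no member was called, and 4 of the 10 genes had an unadjusted p under 0.05 in each case. With 1 library left in a group, that library is assumed to vary like those of the other group.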
